A study of Mus musculus with 53 samples.

Results

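The 40 genes described here encode enzymes and membrane proteins of the lysosome. They were taken from a list of symbols, and all 40 were found among the 36410 genes that the 3 count tables of the study have in common. They fall into 5 cathepsins that are best known from macrophages and other myeloid cells (Ctsc, Ctsh, Ctsk, Ctss, Ctsz), 6 cathepsins and other proteases made by most cells (Ctsa, Ctsb, Ctsd, Ctsl, Lgmn, Tpp1), 7 glycosidases (Gla, Glb1, Gusb, Hexa, Man2b1, Naglu, Neu1), and 7 lipid hydrolases and lipid-handling proteins (Asah1, Lipa, Npc1, Npc2, Ppt1, Psap, Smpd1). The others are 5 proteins of the lysosomal membrane (Lamp1, Lamp2, Laptm5, Mcoln1, Scarb2), 8 subunits or accessory proteins of the proton pump (Atp6ap1, Atp6v0a1, Atp6v0b, Atp6v0c, Atp6v0d1, Atp6v1a, Atp6v1b2, Atp6v1h), and 2 regulators (Grn, Tfeb).

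Whole liver of male C57BL/6J mice was profiled by RNA sequencing in 53 libraries from 3 separate experiments. In the diet experiment, mice aged 9 weeks were given 32 weeks of either Low Fat Control diet (Teklad TD08485; 9 wild-type livers) or Western diet (Teklad TD88137; 7 wild-type livers and 7 livers labelled Bmp8b knockout). In the toxin experiment, mice aged 16 weeks were injected into the peritoneum with 2 ul per g of body weight of olive oil (6 wild-type livers) or of an equal mix of carbon tetrachloride (CCl4) and olive oil (4 wild-type livers and 6 labelled knockout), and were culled 3 days later. In the surgery experiment, also at 16 weeks, wild-type liver from day 0 of a partial hepatectomy (5 livers) was compared with liver from day 3 (5 wild-type livers and 4 labelled knockout). The wild-type mice were littermates, no knockout livers stand on the low-fat, oil or day 0 arm, and the labels do not say which part of Bmp8b the knockout removes.

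Lysosomes digest proteins, glycans and lipids delivered by endocytosis, phagocytosis and autophagy. Their hydrolases work in an acid lumen, which the vacuolar proton pump (V-ATPase) maintains through a cytosolic V1 part that splits ATP and a membrane V0 part that carries protons. In liver both hepatocytes and macrophages are rich in lysosomes, and the transcription factor TFEB and its relatives switch on many lysosomal genes through an E-box in their promoters.

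The diet libraries held 8963187 to 15196537 counts assigned to genes, the toxin libraries 2661699 to 6364414 and the surgery libraries 2450358 to 6914274. Levels are given as CPM, counts divided by a library total that was adjusted with the trimmed mean of M-values (TMM), and a gene is said to have risen or fallen only where edgeR's quasi-likelihood test gave a p under 0.05 after Benjamini-Hochberg adjustment over the whole set of tested genes. Bmp8b, the targeted ligand of the bone morphogenetic protein family, was not lower in livers labelled knockout. It lay between 0.718 and 2.23 CPM in those on Western diet against 0.521 to 1.79 CPM in the wild type, between 0.267 and 2.62 CPM against 0 to 1.33 CPM after CCl4, and between 1.08 and 2.63 CPM against 0.358 to 1.31 CPM on day 3 of surgery. A total over the gene does not show whether the part that was removed is missing, so the genotype labels could not be checked this way and "labelled knockout" is used throughout. The tissue label was checked against 12 hepatocyte markers, all with counts in every group.

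In low-fat liver the members spanned a wide range of levels per kb of annotated exon, with all annotated exons of a gene merged. That length can exceed the length of any 1 transcript, so the order depends on the annotation. By CPM alone Ctsb had a mean of 852 CPM and Lamp1 713 CPM. Lamp1, an abundant glycoprotein that lines the lysosomal membrane, stood first with a mean of 266 CPM per kb, with a range of 230.4 to 298 over the 9 livers. Psap, the precursor of the saposin cofactors of sphingolipid breakdown, followed at 206 CPM per kb, then the proteases Ctsd at 189.9, Ctsb at 141 and Ctsz at 138.5 CPM per kb. The ranges of neighbours in this order overlapped throughout, except below Ctsz, below Ctsl (95.0 CPM per kb), below Laptm5 (3.83 CPM per kb) and below Gla (1.70 CPM per kb). At the low end stood Tfeb with 0.910 CPM per kb and Ctsk, the collagen-degrading cathepsin of osteoclasts, with 0.573 CPM per kb. Of the myeloid cathepsins, Ctss at 22.0 CPM per kb was close to the protease Lgmn, also at 22.0, and the 8 pump members lay between 5.01 (Atp6v0c) and 41.1 CPM per kb (Atp6v0d1).

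The promoters show how the E-box is spread over the set. RefSeq (GRCm38.p6) gave 1 or more windows, from 250 bases before to 50 bases after a start, for 34 of the 40 members (all but Asah1, Atp6v1b2, Atp6v1h, Ctsb, Ctsh and Npc1). A gene was counted for a motif if any of its windows held it. The 6-base E-box CACGTG, which reads the same on both strands, was counted in 12 of these 34 members (35.3%). This compares with 8.09% of all 27025 genes with a window and 11.8% of the 10070 with a window that were tested in the diet experiment. Ctsa and Lgmn each had another window without CACGTG. The longer form TCACGTGA, which contains it, was in 6 of 34 (17.6%) against 1.12% and 2.17%. By subgroup, the 6-base form was present in 4 of 5 ubiquitous proteases, 3 of 6 pump members, 3 of 7 glycosidases and 2 of 5 membrane proteins. It was in 0 of 4 myeloid cathepsins, 0 of 5 lipid genes and 0 of 2 regulators. The windows below are shown 5′ to 3′ on the gene's strand. That of Lamp1 is shown because it holds CACGTG most often, 4 times, and the next 6 because they hold TCACGTGA. The last 2 are those of the myeloid cathepsins among the members with the other motif described below. Capitals mark CACGTG or TCACGTGA and, in Ctss and Ctsc, ACTTCCTC.
Lamp1: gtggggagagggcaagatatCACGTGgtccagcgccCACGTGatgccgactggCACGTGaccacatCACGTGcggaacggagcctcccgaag
Mcoln1: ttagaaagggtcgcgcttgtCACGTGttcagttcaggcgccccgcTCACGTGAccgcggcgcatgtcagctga
Gla: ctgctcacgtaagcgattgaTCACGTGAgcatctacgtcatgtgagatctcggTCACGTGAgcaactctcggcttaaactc
Ctsa: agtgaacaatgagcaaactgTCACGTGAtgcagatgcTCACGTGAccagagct
Ctsd: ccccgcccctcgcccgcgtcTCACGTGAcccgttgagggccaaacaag
Atp6v0d1: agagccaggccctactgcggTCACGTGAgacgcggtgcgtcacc
Atp6v1a: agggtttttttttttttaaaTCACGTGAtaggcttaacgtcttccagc
Ctss: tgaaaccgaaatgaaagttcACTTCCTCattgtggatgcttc
Ctsc: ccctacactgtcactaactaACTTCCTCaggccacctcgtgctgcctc

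These stretches lie at chr8:13159080-13159171 (plus strand) for Lamp1, chr8:3500428-3500500 (plus) for Mcoln1, chrX:134601173-134601253 (minus) for Gla and chr2:164833740-164833792 (plus) for Ctsa. Those of Ctsd and Atp6v0d1 lie at chr7:142387899-142387946 (minus) and chr8:105566045-105566088 (minus), and that of Atp6v1a at chr16:44139364-44139411 (minus). Those of Ctss and Ctsc lie at chr3:95526764-95526805 (plus) and chr7:88277914-88277961 (plus). The Lamp1 promoter carried CACGTG 4 times, the largest number among the members. The other motif, GAGGAAGT or its reverse complement ACTTCCTC, is a form of the purine-rich site that the myeloid factor PU.1 binds, and it was chosen for the search after the values had been seen. It was in 4 of the 34 members with a window (Ctsc, Ctss, Gla and Gusb, 11.8%) against 3.69% of all genes and 3.80% of tested genes. A match is a description of letters in a window, not of a bound site.

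**Figure D1:**
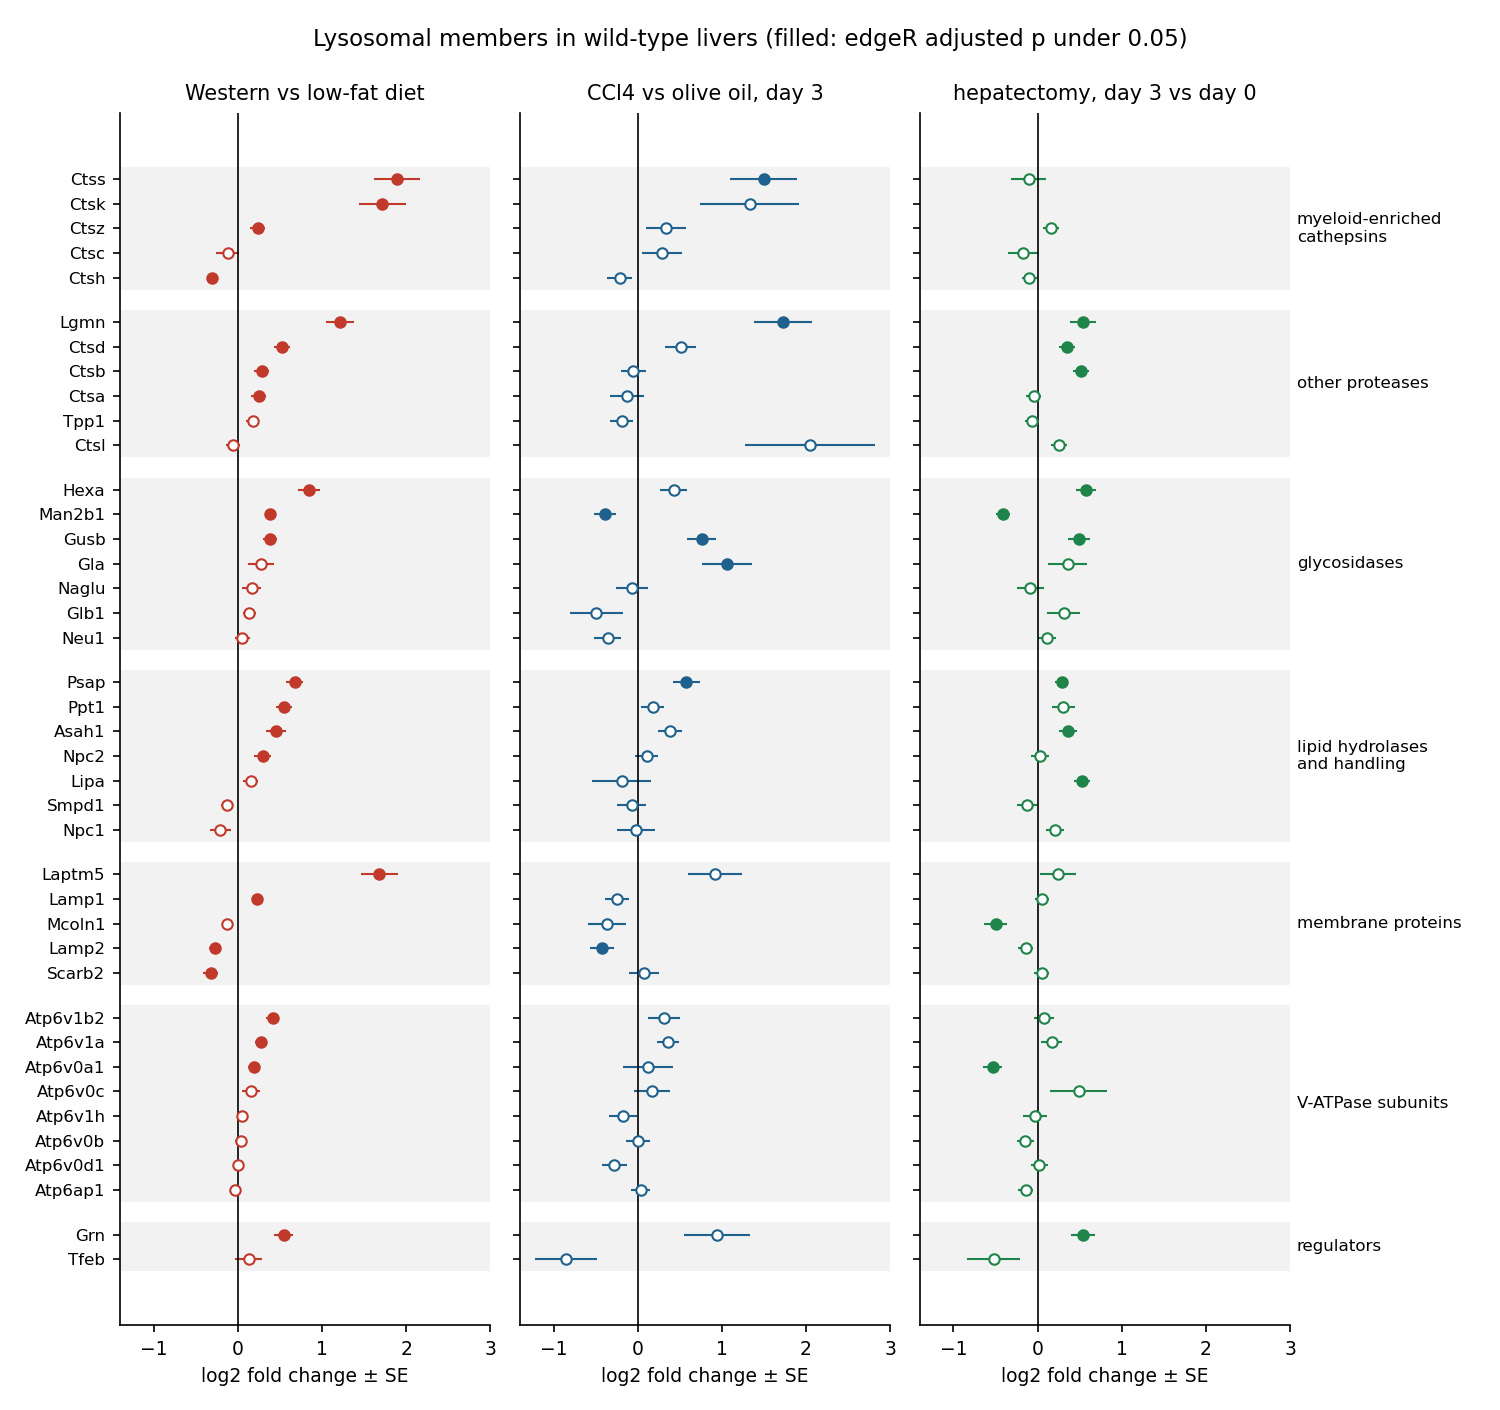
Log2 fold change of each member, with its standard error, for wild-type liver on Western against low-fat diet, after CCl4 against oil, and on day 3 against day 0 of partial hepatectomy; filled points passed edgeR's test at an adjusted p under 0.05. Ctss, Ctsk, Laptm5 and Lgmn rose most on Western diet, by 1.21 to 1.89 on the log2 scale, whereas the pump members lay between −0.53 and 0.49 in all 3 comparisons.

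On Western diet 20 of the 40 members rose and 3 fell in wild-type liver, against 20.4% and 17.0% of the 13005 genes tested (37.4% either way), so the share that rose was above the background and the share that fell below it. The median log2 fold change of the members was 0.21 against −0.02 for all genes, and 31 members lay above 0. The 2 diets did not overlap for 9 members, against 7.27% of all genes. Risers came from every subgroup, but the largest changes, above 1 on the log2 scale, were in Ctss, Ctsk, Laptm5 and Lgmn, and the other 16 rose by 0.19 to 0.85. Neither index set of the sequencing runs carried a single diet, and within each of them all 23 kept their direction. Among libraries with index D501 17 members rose and 4 fell, and among those with D502 7 rose and 0 fell. Both fits had fewer livers, and their counts stand without the share over all genes.

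The myeloid cathepsins split. Ctss, a cathepsin of antigen-presenting cells that trims the invariant chain of MHC class II, had a lowest, median and highest level of 18.7, 27.1 and 47.4 CPM on low-fat diet and of 53.6, 104 and 190.1 CPM on Western diet. Every Western wild-type liver was above every low-fat liver, and the log2 fold change was 1.89 (SE 0.28, n = 7 and 9; edgeR adjusted p = 1.99e-05). Ctsk rose by 1.72 (SE 0.28; edgeR adjusted p = 6.00e-05) from a very low level, 0.417, 0.910 and 1.20 CPM to 1.16, 2.68 and 5.49 CPM, with the lowest Western liver just below the highest low-fat liver. Ctsz, a carboxypeptidase, rose by 0.24, but did not pass in 9 of the 16 fits with 1 liver removed (edgeR adjusted p up to 0.113). Ctsh, an aminopeptidase, went the other way: its levels were 245, 272 and 299.8 CPM on low-fat and 204, 218.5 and 233 CPM on Western diet, without overlap, and it fell by 0.31 (SE 0.06; edgeR adjusted p = 0.000379). Ctsc, which activates the serine proteases of granules, had a log2 fold change of −0.12 and did not pass the test. The 5 thus gave 3 that rose, 1 that fell and a median of 0.24, next to 4, 0 and 0.27 for the 6 ubiquitous proteases and 3, 0 and 0.10 for the 8 pump members. The subgroup names do not state which cells express a gene in these livers. Among Western-diet livers the ubiquitous protease Lgmn had r = 0.97 with macrophage markers and the myeloid cathepsin Ctsh −0.37, as described below.

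Among the ubiquitous proteases, Lgmn, an asparaginyl endopeptidase that processes other lysosomal enzymes, changed most. Its lowest, median and highest levels were 40.6, 53.4 and 61.9 CPM on low-fat diet and 78.2, 120.0 and 158 CPM on Western diet. The groups did not overlap, and the log2 fold change was 1.21 (SE 0.16; edgeR adjusted p = 9.36e-06). The aspartic protease Ctsd rose by 0.53, from a median of 442 to 672 CPM, with 1 low-fat liver at 541 CPM just above the lowest Western liver at 539 CPM. Ctsb and Ctsa rose by 0.28 and 0.25, the latter not in 7 of those 16 fits (edgeR adjusted p up to 0.0603). Ctsl, a cysteine cathepsin like Ctsb, had medians of 604 and 566 CPM and a log2 fold change of −0.06, and Tpp1, a tripeptidyl peptidase, had 0.18 (edgeR adjusted p = 0.0675).

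Of the glycosidases, Hexa, the alpha subunit of beta-hexosaminidase, rose by 0.85 (SE 0.13; edgeR adjusted p = 3.03e-05). Its lowest, median and highest levels were 37.4, 51.1 and 66.9 CPM on low-fat and 67.7, 93.1 and 114 CPM on Western diet, with a narrow gap between the groups. Man2b1, lysosomal alpha-mannosidase, rose by 0.39 (SE 0.07), from 99.2, 110.7 and 133 CPM to 134.5, 146 and 154 CPM, also without overlap. Gusb, beta-glucuronidase, rose by 0.39 as well. Gla, Glb1, Naglu and Neu1 had values from 0.05 to 0.28 and did not pass the test.

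The lipid genes that rose were Psap, Ppt1, Asah1 and Npc2. Psap had lowest, median and highest levels of 467, 559 and 669 CPM on low-fat diet and 732, 924 and 1089 CPM on Western diet. All Western wild-type livers lay above all low-fat livers, with a log2 fold change of 0.68 (SE 0.10; edgeR adjusted p = 2.04e-05). Ppt1, which removes palmitate from proteins, rose by 0.55 (SE 0.09; edgeR adjusted p = 9.31e-05), from 24.0, 30.4 and 32.2 CPM to 35.5, 42.4 and 50.9 CPM. The ceramidase Asah1 rose by 0.45 and the cholesterol carrier Npc2 by 0.30 (0.23 without Western wild-type liver 14, which did not pass; edgeR adjusted p = 0.0712). Lipa, the acid lipase that frees cholesterol and fatty acids from lipoproteins, did not pass the test, with medians of 369 and 384 CPM and a log2 fold change of 0.15. Npc1, which exports cholesterol from the lysosome, had −0.21 and the sphingomyelinase Smpd1 had −0.13, and neither passed.

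Membrane proteins moved in both directions. Laptm5, a lysosomal protein of blood-derived cells, rose by 1.68 (SE 0.22; edgeR adjusted p = 6.51e-06), and its levels of 28.4, 50.8 and 64.9 CPM on Western diet did not overlap with those of 9.19, 14.4 and 22.1 CPM on low-fat diet. Lamp1 rose by 0.23. Lamp2, the second major membrane glycoprotein, fell by 0.27 (SE 0.07; edgeR adjusted p = 0.00219), from 614, 677 and 758 CPM to 533.5, 555 and 589 CPM without overlap. Scarb2, the receptor that carries beta-glucocerebrosidase to the lysosome, fell by 0.32 (SE 0.09; edgeR adjusted p = 0.00788), with overlapping levels of 83.7, 113.9 and 134 CPM and 78.3, 90.4 and 103.0 CPM. The calcium channel Mcoln1 had −0.12 and did not pass.

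Of the proton pump 3 members rose and 0 fell. Atp6v1b2, a subunit of the catalytic head, had lowest, median and highest levels of 48.0, 52.6 and 61.9 CPM on low-fat and 57.7, 72.7 and 81.0 CPM on Western diet, and rose by 0.41 (SE 0.08; edgeR adjusted p = 0.000185). Its partner in the head, Atp6v1a, rose by 0.27, and the membrane subunit Atp6v0a1 by 0.19, though not in 11 of the 16 fits with 1 liver removed (edgeR adjusted p up to 0.0959). The other 5 had values between −0.04 and 0.16, of which Atp6v0d1, the stalk subunit, was nearest to 0 with medians of 71.9 and 73.3 CPM. Of the regulators, Grn, which encodes progranulin, a protein cut into granulins in lysosomes, rose by 0.55 (SE 0.11; edgeR adjusted p = 0.000575), from 139.7, 155 and 224 CPM to 192, 245.5 and 293 CPM. Tfeb, the transcription factor itself, had medians of 5.60 and 5.49 CPM and a log2 fold change of 0.13 that did not pass. The 12 members with CACGTG in the promoter window gave 5 that rose and 0 that fell (median 0.20), and the 22 with a window and no CACGTG gave 12 and 2 (median 0.21).

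Other genes of the same organelle were counted in the same way. Of 50 further lysosomal genes (26 enzymes and cofactors, 14 membrane proteins and transporters, 10 V-ATPase subunits), 16 rose and 4 fell on Western diet, with a median of 0.10. Over all tested genes 20.4% rose and 17.0% fell. Among them Cd63, a tetraspanin of late endosomes and lysosomes, rose by 2.75 (SE 0.37; edgeR adjusted p = 1.01e-05), Atp6v0d2, a pump subunit of macrophages and osteoclasts, by 1.73, and Slc11a1, a metal transporter of phagocytes, by 1.41. Gm2a, the activator protein of ganglioside breakdown, fell by 0.54. Of 10 sorting genes 3 rose, including Gnptab (0.43), which makes the mannose 6-phosphate tag. Both cystatins that were tested rose, Cstb by 0.96. Of the 3 relatives of Tfeb only Tfec, which is known mainly from macrophages, rose (0.80; edgeR adjusted p = 0.0425).

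Markers of several cell types moved with these changes. All 13 macrophage markers rose on Western diet (median log2 fold change 1.75), and their summed level was 155 to 360.1 CPM in low-fat livers against 441 to 1090.0 CPM in Western wild-type livers. Cd68, an endolysosomal glycoprotein of macrophages, rose by 1.90 and the surface receptor Adgre1 by 1.46. In a separate list for lipid-associated macrophages Gpnmb rose by 5.40, Mmp12 by 4.22 and Lpl by 2.72, while Fabp5 fell by 1.60. The summed level of that list was 88.55 to 257.8 CPM in low-fat livers and 208 to 838 CPM in Western wild-type livers. Of 8 Kupffer cell markers 4 rose, Cd5l by 1.71 and Clec4f by 0.53 among them, and 1 fell, Cd163 by 1.91. Of 12 hepatocyte markers 1 rose and 9 fell, Alb by 0.62, and all 5 markers of dividing cells rose, Mki67 by 2.54. Of 9 stellate cell and myofibroblast markers 7 rose, Col1a1 by 3.02, and their summed level was 261 to 396 CPM in low-fat livers against 487 to 959 CPM in Western wild-type livers. Of 5 cholangiocyte markers tested 3 rose. In whole tissue, more cells of a type and more RNA per cell cannot be told apart, and the part of these cell types in the members' changes was not tested.

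**Figure D2:**
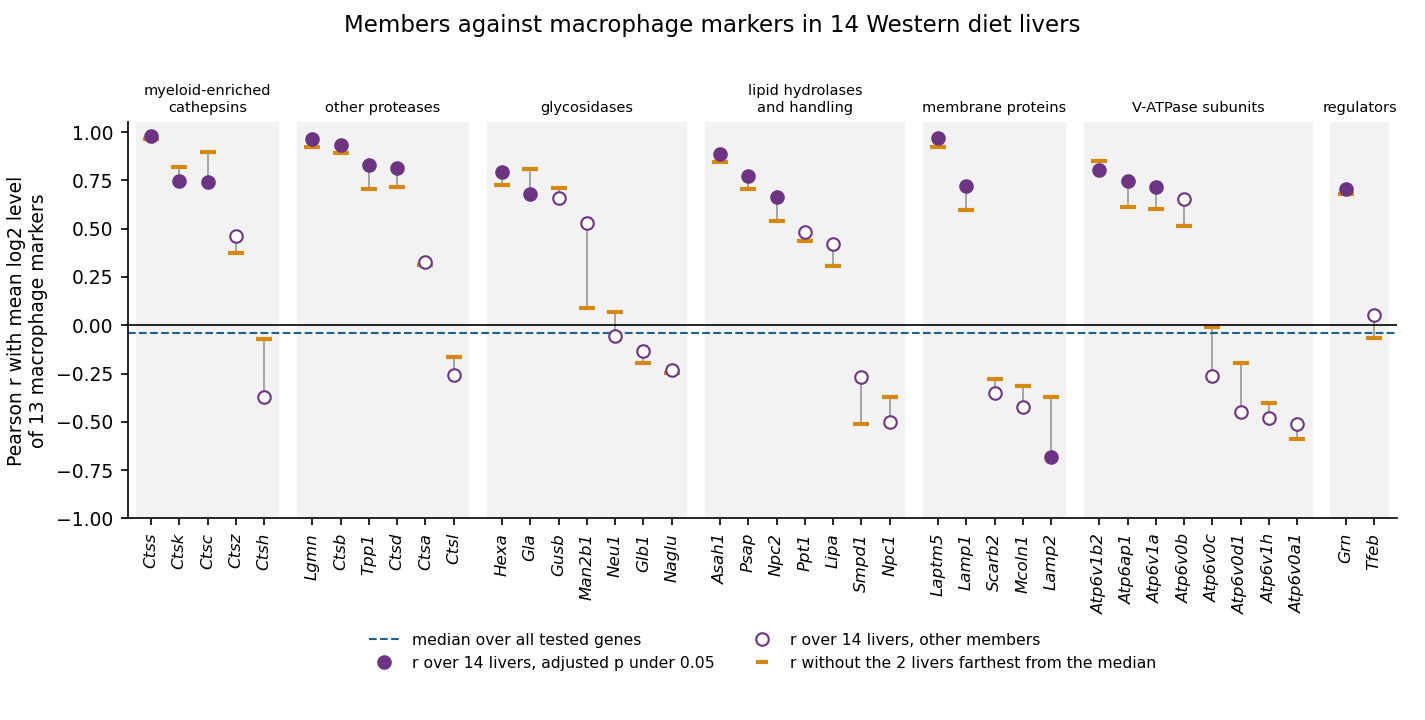
Pearson's r of each member with the mean log2 level of 13 macrophage markers over 14 Western-diet livers (points, filled where the adjusted permutation p is under 0.05) and without the 2 livers farthest from the median of the markers (short bars). Ctss (r = 0.98), Laptm5 and Lgmn (both 0.97) lie at the top and Lamp2 (−0.68) at the bottom, and the dashed line marks the median over all tested genes (−0.04).

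Within the 14 Western-diet livers, wild type and labelled knockout, each gene was set against the mean of the 13 macrophage markers, with 100000 permutations per gene and adjustment over 13005 genes. Of the members 18 were positively and 1 negatively related to the markers at an adjusted permutation p under 0.05, against 12.2% and 7.29% of all genes, and the median r was 0.59 against −0.04. Ctss had Pearson's r = 0.98 and Spearman's rho = 0.98 (permutation p = 1e-05 for both, the smallest that could be reached; adjusted p = 0.000657 and 0.00118). Laptm5 had r = 0.97 and rho = 0.96 and Lgmn r = 0.97 and rho = 0.95, with the same permutation p. These 3 stayed at r = 0.96, 0.92 and 0.92 once the 2 livers farthest from the median of the markers, both labelled knockout (1 and 33), were left out. They were related within each genotype label as well, for Ctss with r = 0.98 in 7 wild-type livers and 0.98 in 7 labelled knockout. Cd68 was at 8.26 CPM in liver 1 and 11.1 CPM in liver 33, both within the low-fat range of 4.82 to 12.8 CPM. The lipid-associated macrophage marker Gpnmb was at 0.120 CPM in liver 1, below its low-fat range of 0.352 to 1.69 CPM. In liver 33 it was at 11.5 CPM, above that range. The cause was not tested.

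Other relations reached into the ubiquitous hydrolases and the pump. Ctsb had r = 0.93 and rho = 0.91 (permutation p = 1e-05 and 5e-05; adjusted p = 0.000657 and 0.00293), and Asah1 r = 0.89 and rho = 0.88 (permutation p = 1e-05 and 8e-05). Atp6v1b2 had r = 0.80 and rho = 0.88 (permutation p = 0.00044 and 8e-05; adjusted p = 0.00607 and 0.00374). Ctsc, which did not pass the diet test, had r = 0.74 and rho = 0.83 (permutation p = 0.00232 and 0.00043; adjusted p = 0.0192 and 0.00915). Ctsh did not pass, with r = −0.37 and rho = −0.29 (permutation p = 0.196 and 0.318), nor was Ctsl, with r = −0.26 and rho = −0.26 (permutation p = 0.376 and 0.366). Man2b1, which rose without overlap on Western diet, had r = 0.53 (permutation p = 0.0518; rho = 0.34, permutation p = 0.241). Lamp2 was the member with a negative relation, r = −0.68 and rho = −0.62 (permutation p = 0.00747 and 0.0202; adjusted p = 0.0417 and 0.0930). Without livers 1 and 33 the counts fell to 9 positive and 0 negative against 5.52% of all genes either way, and without liver 1 alone to 10 and 0. Without livers 1 and 33 the relation of Lamp2 had r = −0.37, that of Ctsc r = 0.89 and that of Hexa r = 0.72.

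**Figure D3:**
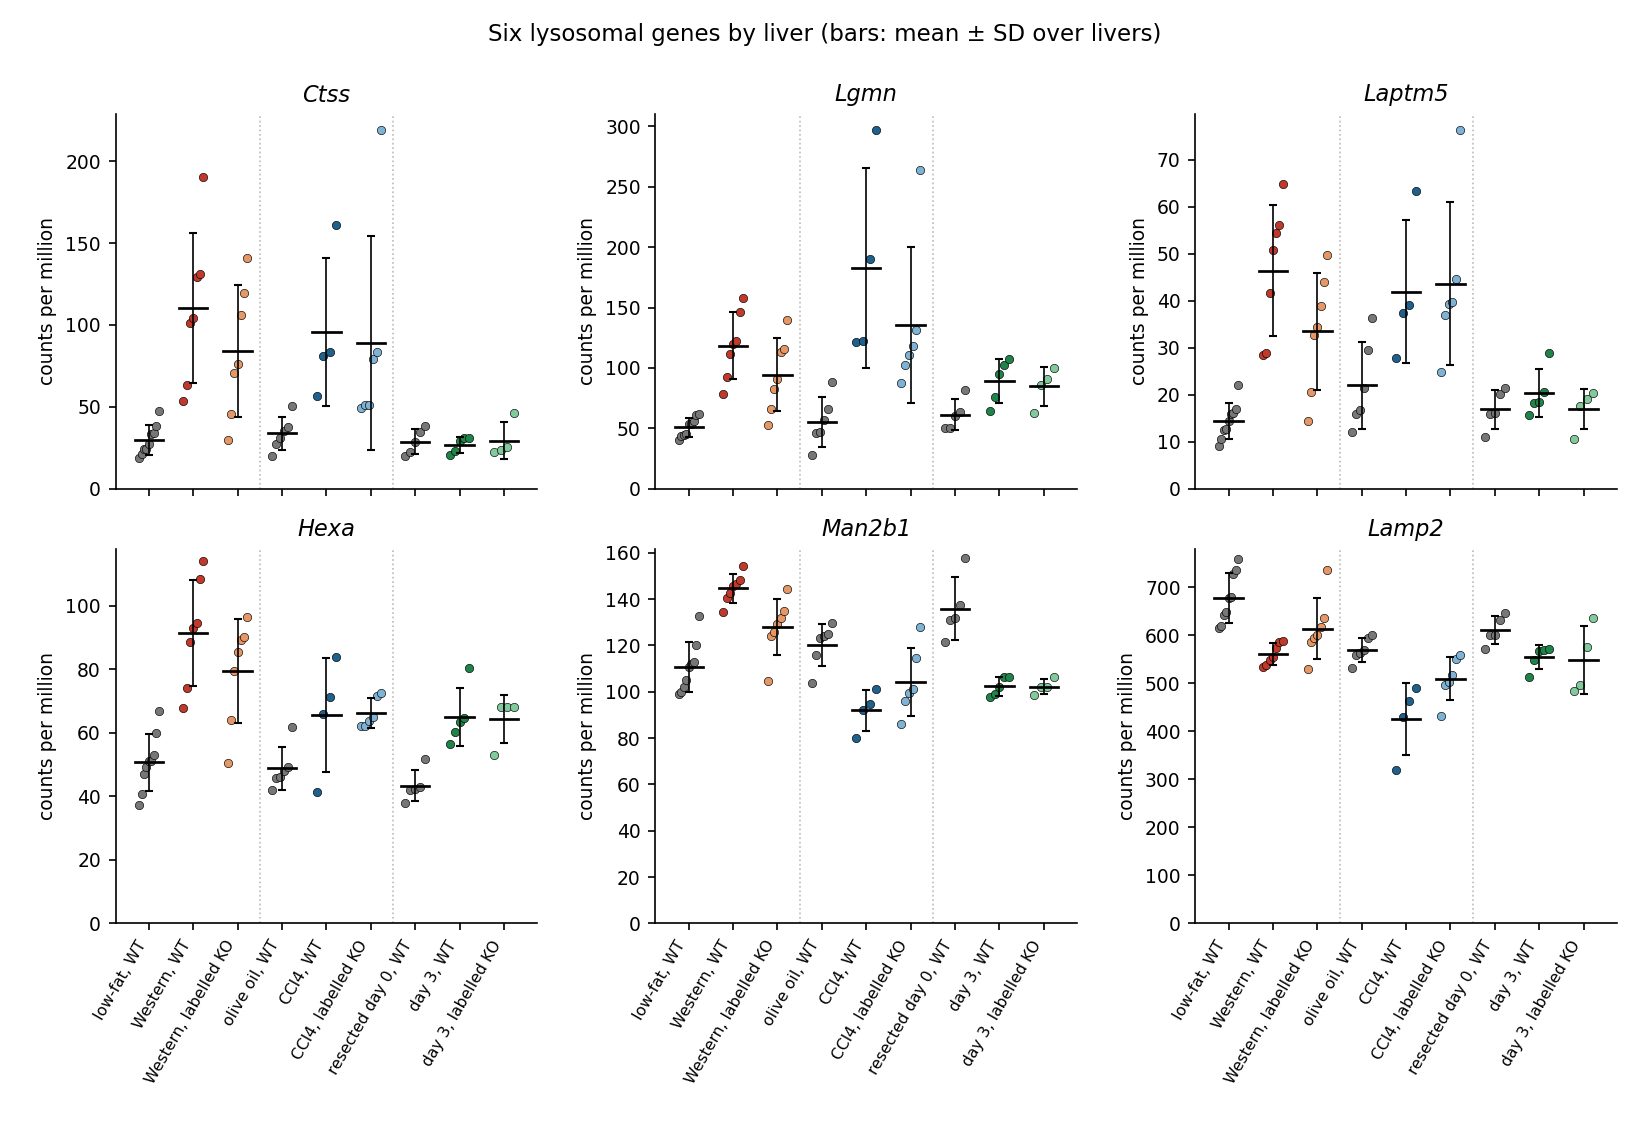
CPM of Ctss, Lgmn, Laptm5, Hexa, Man2b1 and Lamp2 in each of the 53 livers by group, on axes that start at 0, with 1 point per liver and bars at the group mean ± SD. In wild-type livers Ctss and Lgmn are high after Western diet and CCl4. Wild-type Ctss is within its day 0 range on day 3 of partial hepatectomy, while labelled knockout liver 17 is above it (46.0 CPM). Wild-type Man2b1 is above its controls on Western diet and below them after CCl4 and surgery.

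CCl4 gave fewer changes. On day 3 after injection 5 of 40 members rose and 2 fell in wild-type liver against oil, next to 11.1% and 8.87% of 11663 genes tested (20.0% either way), so the counts were near the background and are no result about the set. The 2 groups did not overlap for 8 members, against 16.9% of all genes. The median log2 fold change was 0.09 against 0.05 for all genes. The genes that rose were Lgmn, Ctss, Gla, Gusb and Psap, and those that fell were Lamp2 and Man2b1. By subgroup, 1 of 5 myeloid cathepsins, 1 of 6 ubiquitous proteases and 0 of 8 pump members rose, with medians of 0.34, 0.23 and 0.08.

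Lgmn had a lowest, median and highest level of 27.9, 51.7 and 88.1 CPM in 6 oil livers, and levels of 190.0, 297, 121 and 122 CPM in the 4 wild-type CCl4 livers 4, 34, 5 and 7. All 4 lay above every oil liver, and the log2 fold change was 1.72 (SE 0.34; edgeR adjusted p = 0.00299). Ctss had 20.3, 33.2 and 50.5 CPM after oil and, in the same order of livers, 81.0, 161, 56.6 and 83.6 CPM after CCl4, a rise of 1.498 without overlap (SE 0.40; edgeR adjusted p = 0.0158). Without liver 34 it was 1.13 and missed the threshold (edgeR adjusted p = 0.0613). Gla, the galactosidase that is lacking in Fabry disease, had 4.28, 7.04 and 9.31 CPM after oil and 20.3, 16.2, 11.6 and 8.92 CPM after CCl4, with the lowest inside the oil range and a rise of 1.06 (SE 0.30; edgeR adjusted p = 0.0203) that was 0.84 and did not pass without liver 4 (edgeR adjusted p = 0.0783). Gusb had 24.9, 29.0 and 34.0 CPM after oil and 68.0, 36.8, 48.8 and 46.0 CPM after CCl4, without overlap, a rise of 0.76 (SE 0.17; edgeR adjusted p = 0.00594). Psap, at 479, 506.4 and 536 CPM after oil, was at 903, 615, 794 and 718 CPM after CCl4 and rose by 0.58 (SE 0.16; edgeR adjusted p = 0.0207), also without overlap. Without liver 4 it was 0.48 and without liver 5 0.54, and neither passed (edgeR adjusted p = 0.0661 and 0.0522).

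The 2 members that fell did so by small amounts. Lamp2 had a lowest, median and highest level of 532, 567 and 599.6 CPM after oil and 489.7, 319, 463 and 430.0 CPM after CCl4, and fell by 0.42 (SE 0.14; edgeR adjusted p = 0.0467). Man2b1 had 104, 124 and 129.9 CPM after oil and 94.7, 101, 79.95 and 92.0 CPM after CCl4, and fell by 0.39 (SE 0.13; edgeR adjusted p = 0.0426). Neither group pair overlapped, but Lamp2 did not pass in 9 and Man2b1 in 8 of the 10 fits that left out 1 liver (edgeR adjusted p up to 0.138 and 0.113), so that 0 to 2 members fell. The largest values of the other subgroups did not pass: Laptm5, at 12.0, 19.1 and 36.4 CPM after oil and 27.9, 63.4, 39.0 and 37.4 CPM after CCl4, had 0.92 (edgeR adjusted p = 0.0527). Grn, at 176, 230.0 and 286 CPM after oil and 641, 593, 268 and 249 CPM after CCl4, had 0.94 (edgeR adjusted p = 0.0973). Both overlapped between oil and CCl4. Atp6v1a, the catalytic pump subunit, had 0.36 (edgeR adjusted p = 0.0537) with no overlap between 36.8, 42.95 and 47.1 CPM after oil and 52.7, 54.2, 56.8 and 54.1 CPM after CCl4. Tfeb had −0.85 (edgeR adjusted p = 0.113).

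Macrophage markers moved here too, with 7 of 13 higher (median 1.33) and a summed level of 119.6 to 356 CPM after oil against 442 to 1066 CPM after CCl4, and Cd68 rose by 2.04. Adgre1 did not pass, at 0.65. In the list for lipid-associated macrophages Gpnmb rose by 7.30, Trem2 by 3.465 and Mmp12 by 3.34. Not all of that list passed, with Fabp5 at −0.26. The summed level of the list was 83.5 to 205 CPM after oil and 341.5 to 524 CPM after CCl4. Of 8 Kupffer cell markers 1 rose (Marco, by 3.21) and 1 fell (C6, by 1.22), with Clec4f at −0.91 not passing. Of 12 hepatocyte markers 0 rose and 2 fell, Cyp2e1 by 3.30 and Apoa2 by 1.71, with Alb at −0.33 not passing. All 5 markers of dividing cells rose, Mki67 by 5.60, and so did 4 of 9 stellate cell and myofibroblast markers, with a summed level of 140.0 to 363.5 CPM after oil and 459 to 1165 CPM after CCl4. Their part in the members' values was not tested. Of the 50 further lysosomal genes 3 rose and 6 fell (median −0.02), against 11.1% and 8.87% of all genes. These counts were near the background and are no result about those genes as a set. Cd63 rose by 4.30 (SE 0.52), and Arsa and Ids, which are sulfatases, fell by 1.18 and 0.89. Index and treatment were largely joined, since index D503 was used for 3 of the 4 wild-type CCl4 livers and for no oil liver. With the index as a covariate 12 members rose and 4 fell, and Man2b1 no longer passed (−0.30). That fit also called more genes in all. Liver 34 (D505) was the only wild-type CCl4 liver with an index of the oil livers. Among labelled knockout livers only 22 (D504) and 35 (D505) had one. Livers 34 and 35 stood apart, as described below. The fit therefore cannot separate index from treatment, and its counts are no result about the set.

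**Figure D4:**
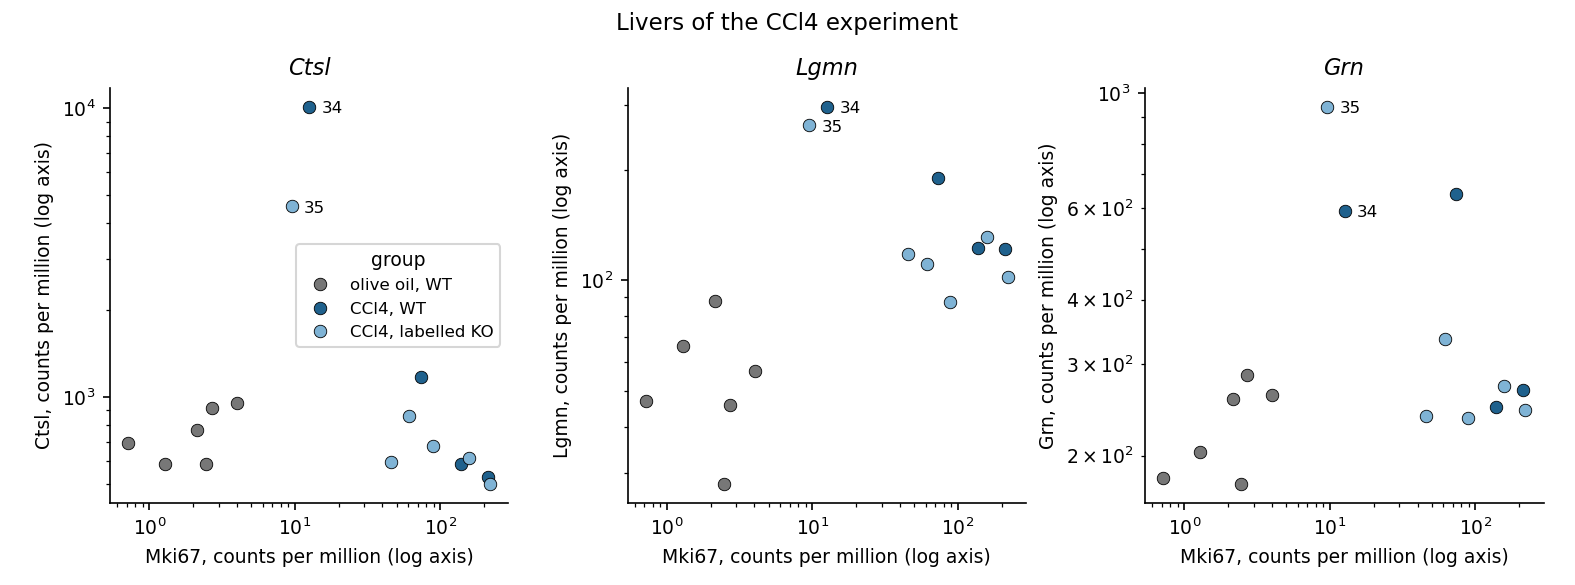
CPM of Ctsl, Lgmn and Grn against CPM of the dividing-cell marker Mki67 in each liver of the toxin experiment, on log axes, with wild-type liver 34 and labelled knockout liver 35 marked. These 2 livers have the lowest Mki67 (12.6 and 9.51 CPM) and the highest Ctsl (10150 and 4580 CPM) of the CCl4 livers.

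Wild-type CCl4 liver 34 and labelled knockout CCl4 liver 35 stood apart. Ctsl had 585, 729 and 955 CPM as its lowest, median and highest level after oil, and 1173, 10150, 527 and 587 CPM in wild-type CCl4 livers 4, 34, 5 and 7. In labelled knockout livers 2, 35, 8, 22, 9 and 12 it had 498, 4580, 612, 859, 677 and 594 CPM, so livers 34 and 35 were far above all others. The log2 fold change of 2.05 in wild-type liver did not pass (SE 0.77; edgeR adjusted p = 0.0706), and without both livers it was 0.02 (edgeR adjusted p = 0.957). Exons of Ctsl overlap those of an antisense gene and a pseudogene, and the counting's strand setting is not given in the sources used here, so its reads cannot be assigned with certainty.

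The same 2 livers differed in other members and in markers. Grn reached 943 CPM in liver 35, the highest of the CCl4 livers, but its 593 CPM in liver 34 was below the 641 CPM of wild-type liver 4. Lipa had its lowest values among the CCl4 livers, 55.7 and 94.1 CPM, in livers 34 and 35. Mki67 was at 12.6 and 9.51 CPM in livers 34 and 35 against 45.5 to 220.5 CPM in the other CCl4 livers, and Cd68 at 94.9 and 86.9 CPM against 22.1 to 41.3 CPM. Without them, which was tried after seeing the data, 9 members rose and 2 fell. The share over all genes is not given for that fit, so these counts are no result about the set. In it Grn rose by 0.76 (edgeR adjusted p = 0.0360), Ctss by 1.12 (edgeR adjusted p = 0.00237) and Lgmn by 1.39. Lamp2 no longer passed (−0.30, edgeR adjusted p = 0.0659).

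Several hydrolases were higher after partial hepatectomy, and Ctss was not among them. On day 3, 9 of 39 members tested rose and 3 fell against day 0, next to 9.87% and 7.5% of 11026 genes (17.4% either way), so the share that rose was above the background. The median was 0.08 against 0.00 for all genes, and 8 members did not overlap, against 13.0% of all genes. Ctsk did not pass the filter on low counts, with 0 to 0.786 CPM on day 0 and 0.715 to 1.48 CPM on day 3. The risers were 3 of 6 ubiquitous proteases (median 0.30), 2 of 7 glycosidases (0.31), 3 of 7 lipid genes (0.29) and Grn, and no myeloid cathepsin (0 of 4, median −0.10) or pump member (0 of 8).

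Values for livers 12 to 16 are given in that order. Lipa had 197, 221, 193, 193 and 187 CPM on day 0 and 260.4, 291, 265, 270 and 342 CPM on day 3, without overlap, and rose by 0.53 (SE 0.09; edgeR adjusted p = 0.000497). Ctsb had 661, 648, 573, 661 and 562 CPM on day 0 and 815, 831.5, 942, 934 and 909.8 CPM on day 3, again without overlap, and rose by 0.51 (SE 0.09; edgeR adjusted p = 0.000611). Hexa had 43.1, 42.1, 38.0, 51.6 and 42.3 CPM on day 0 and 64.7, 56.7, 60.4, 63.3 and 80.4 CPM on day 3, a rise of 0.58 (SE 0.12; edgeR adjusted p = 0.0015) with no overlap. These 3 had the clearest separation among the members that rose. Ctsd, at 192, 184, 165, 210.2 and 175 CPM on day 0 and 261, 266, 226, 210.9 and 218.5 CPM on day 3, rose by 0.35 (SE 0.09; edgeR adjusted p = 0.0108) with the groups just apart. Psap rose by 0.29 without overlap, but with the mouse number shared by both days as a block it did not pass (0.29; edgeR adjusted p = 0.0513). Day 0 samples are resected liver, so same-numbered samples may come from 1 mouse, which the labels do not state.

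Grn, Lgmn, Gusb and Asah1 rose with overlapping levels. Grn had 279, 245, 171, 196 and 162 CPM on day 0 and 299, 266, 369, 325 and 276 CPM on day 3, and rose by 0.54 (SE 0.14; edgeR adjusted p = 0.00991). Lgmn had 60.3, 81.3, 63.9, 50.1 and 50.2 CPM on day 0 and 76.3, 64.4, 95.1, 108 and 102.5 CPM on day 3, and rose by 0.54 (SE 0.16; edgeR adjusted p = 0.0220). Only liver 13 of day 0 reached into the day 3 range, and Lgmn did not pass when day 0 liver 15 or 16 or day 3 liver 15 or 16 was left out (edgeR adjusted p = 0.0587 to 0.0688). Gusb had 30.7, 32.2, 31.6, 37.7 and 29.8 CPM on day 0 and 37.4, 47.2, 41.1, 42.0 and 61.5 CPM on day 3, and rose by 0.49 (SE 0.13; edgeR adjusted p = 0.0107). Asah1 had 41.5, 42.6, 36.5, 34.6 and 39.2 CPM on day 0 and 54.5, 51.9, 53.3, 42.3 and 48.3 CPM on day 3, and rose by 0.36 (SE 0.10; edgeR adjusted p = 0.0192). In both genes 1 liver of each day lay across the gap, and Asah1 did not pass without day 3 liver 12 or day 0 liver 15 (edgeR adjusted p = 0.0551 and 0.0556).

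The 3 members that fell were a pump subunit, a channel and a glycosidase. Atp6v0a1 had 89.8, 79.6, 88.5, 73.4 and 86.6 CPM on day 0 and 66.7, 49.2, 55.4, 66.5 and 50.3 CPM on day 3, and fell by 0.53 (SE 0.11; edgeR adjusted p = 0.00214). Mcoln1 had 51.8, 43.5, 37.7, 45.3 and 45.8 CPM on day 0 and 33.2, 21.4, 35.4, 34.2 and 35.6 CPM on day 3, and fell by 0.50 (SE 0.13; edgeR adjusted p = 0.0137). Man2b1 had 121.5, 158, 132, 137 and 131 CPM on day 0 and 102, 106, 98.0, 99.02 and 106 CPM on day 3, and fell by 0.41 (SE 0.09; edgeR adjusted p = 0.00194). None of the 3 overlapped between the days. Ctss had 28.5, 38.1, 19.8, 34.6 and 22.7 CPM on day 0 and 23.1, 20.5, 31.1, 29.2 and 30.9 CPM on day 3, which overlapped between the days (log2 fold change −0.11; edgeR adjusted p = 0.784). Laptm5 had 0.24 and Ctsc, with 127.8, 127, 77.5, 113 and 156 CPM on day 0 and 88.8, 83.7, 155, 118 and 90.1 CPM on day 3, had −0.17. Day 3 libraries all carried index D507 and no day 0 library did, so time and index cannot be told apart.

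Of the 9 macrophage markers tested 1 rose (median 0.36), and the summed level of all 13 was 206.5 to 303 CPM on day 0 and 335 to 398 CPM on day 3. In the list for lipid-associated macrophages Lpl rose by 1.93, Cd9 by 1.29 and Spp1, also a cholangiocyte marker, by 0.63. Fabp5, the other marker tested in that list, did not pass (−0.46). The rest of its 8 markers did not pass the filter on low counts, among them Gpnmb, with 0 to 1.07 CPM in wild-type day 3 livers. The summed level of that list was 157 to 259 CPM on day 0 and 296 to 439 CPM on day 3. Adgre1, Cd68 and Clec4f did not pass, at 0.03, 0.47 and −0.27. Of 8 Kupffer cell markers 1 rose and 1 fell. Of 12 hepatocyte markers 2 rose, Alb by 0.76 and Hpx by 0.72, and 3 fell, among them Cyp2e1 by 1.28. All 5 markers of dividing cells rose, Mki67 by 4.82, and so did 5 of 9 stellate cell and myofibroblast markers, with a summed level of 144.8 to 306 CPM on day 0 and 282 to 917 CPM on day 3. The part of these cells in the members' changes was not tested. Of the 50 further lysosomal genes 6 rose and 2 fell (median 0.06), against 9.87% and 7.5% of all genes. These counts were near the background and are no result about those genes as a set. Gm2a rose by 1.16 (SE 0.10, edgeR adjusted p = 2.91e-07) and Atp6v0d2 by 2.94. Of 10 sorting genes 2 rose, the mannose 6-phosphate receptor Igf2r by 0.62 and Gnptab by 0.69, and 3 fell, Sort1 by 0.72, Gnptg, which encodes the partner subunit of Gnptab, by 0.73 and Nagpa by 0.63.

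The differences between these responses were tested in 1 fit over the wild-type livers. The diet response exceeded the hepatectomy response in 4 members and was below it in 0, against 1.94% and 2.43% of 12643 genes (4.37% either way). They were Ctss, with a difference of 2.01 on the log2 scale (SE 0.38; edgeR adjusted p = 0.00223), Laptm5 with 1.45 (SE 0.35; edgeR adjusted p = 0.0138), Man2b1 with 0.81 (SE 0.11; edgeR adjusted p = 2.19e-05) and Atp6v0a1 with 0.73 (SE 0.21; edgeR adjusted p = 0.0410). Man2b1 rose on Western diet and fell after hepatectomy, and after CCl4 it fell in a call that was lost in 8 of 10 fits with 1 liver removed. Its diet response also exceeded that to CCl4, by 0.77 (SE 0.11; edgeR adjusted p = 9.63e-06).

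The diet response exceeded the CCl4 response in 3 members and was below it in 1, against 8.21% and 10.6% of genes (18.8% either way), a share near the background. Besides Man2b1 these were Lamp1 (0.47; edgeR adjusted p = 0.00893), Tpp1 (0.36; edgeR adjusted p = 0.0478) and, below, Ctsl, whose difference was −2.11 (edgeR adjusted p = 0.00478) and −0.09 without CCl4 wild-type liver 34 (edgeR adjusted p = 0.812). Without that liver Tpp1 did not pass either (0.30; edgeR adjusted p = 0.104). The CCl4 response exceeded that to hepatectomy in Ctsl (1.80; edgeR adjusted p = 0.0480), Ctss (1.61; edgeR adjusted p = 0.0164) and Lgmn (1.19; edgeR adjusted p = 0.0218) and was below it in Ctsb (−0.55; edgeR adjusted p = 0.0340), against 3.75% and 4.27% of genes (8.02% either way). Without liver 34 none of the first 3 passed, with −0.22, 1.24 and 0.86. Without day 0 liver 13 Ctss alone remained of the 3, and without day 3 wild-type liver 13 Ctsl no longer passed (1.84; edgeR adjusted p = 0.0614).

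No member passed the test between genotype labels within any challenge. Of the 40 members 0 rose or fell on Western diet (0.0154% of all genes either way), 0 after CCl4 (0.00857%) and 0 on day 3 of hepatectomy (0.154%, of which 0.0363% lower), next to 2, 1 and 17 genes in all that passed. Their median log2 differences, labelled knockout minus wild type, were −0.10, 0.09 and −0.02. At an unadjusted p under 0.05 edgeR gave 766, 719 and 1001 genes in all, and DESeq2 called 3, 21 and 59 genes. On Western diet the values of labelled knockout livers were 29.6, 76.0 and 141 CPM for Ctss and 14.5, 34.3 and 49.8 CPM for Laptm5 as lowest, median and highest, with log2 differences of −0.39 and −0.46 that did not pass. The groups did not overlap for 0, 2 and 3 members in the 3 challenges, against 0.0846%, 0.952% and 2.68% of all genes.

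**Figure D5:**
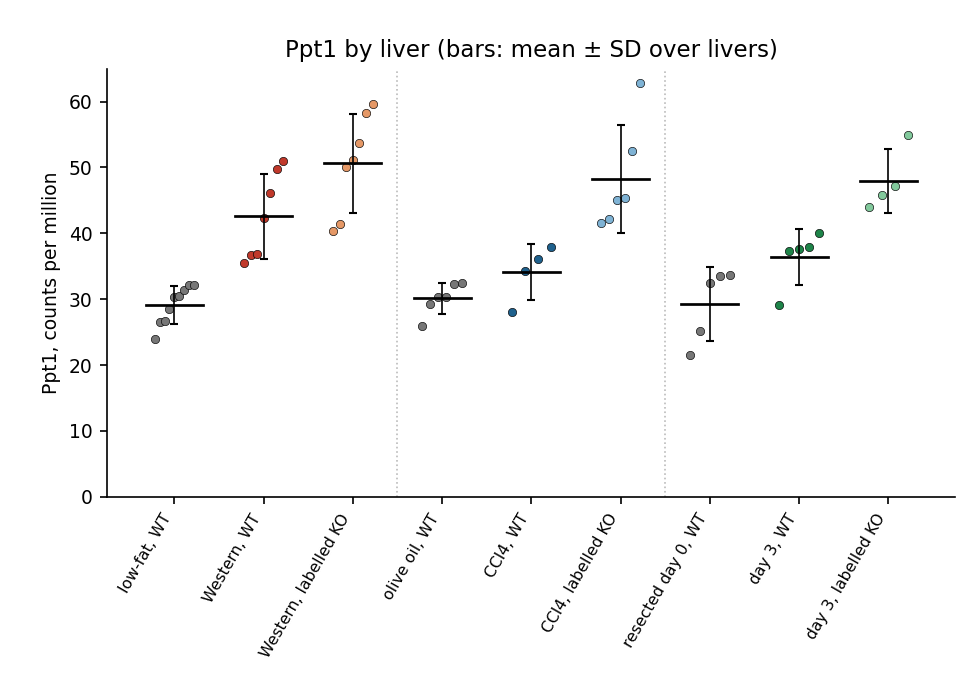
CPM of Ppt1 in each liver by group, on an axis that starts at 0, with 1 point per liver and bars at the group mean ± SD. After CCl4 and on day 3 of partial hepatectomy every labelled knockout liver lies above every wild-type liver, and on Western diet the groups overlap.

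Ppt1 was the member that differed by label when the 3 challenges were combined. After CCl4 it was at 37.9, 28.1, 36.1 and 34.3 CPM in wild-type livers 4, 34, 5 and 7, and in labelled knockout livers between 41.6 and 62.9 CPM with a median of 45.2 CPM. On day 3 of hepatectomy it was at 37.6, 29.1, 40.1, 37.3 and 37.9 CPM in wild-type livers 12 to 16, and at 47.1, 44.0, 45.9 and 55.0 CPM in labelled knockout livers 17 to 20. On Western diet the groups overlapped, with 35.5, 42.4 and 50.9 CPM in the wild type and 40.4, 51.2 and 59.7 CPM in livers labelled knockout. The log2 differences were 0.25, 0.50 and 0.40 on Western diet, after CCl4 and after surgery (edgeR adjusted p = 0.813, 0.654 and 0.385).

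In a fit over all 53 livers that averaged the label difference over the 3 challenges, which was added after seeing the data, 1 member rose and 0 fell, against 0.119% and 0.0316% of 12646 genes (0.15% either way). This was Ppt1, with 0.39 (SE 0.07; edgeR adjusted p = 0.00536, and 0.000472 to 0.0151 under other settings). Ppt1 lies at chr4:122836242-122859175 on the plus strand (GRCm38), 0.246 Mb from Bmp8b at chr4:123105165-123132099. Of 87 genes tested within 5 Mb on each side of Bmp8b, 4 were called (4.6%), against 15 of 12559 elsewhere (0.119%), a window chosen after the values were seen. Ppt1 itself is among the 4, so this share is not separate from its own call. The exons of Ppt1 overlap Cap1 on the opposite strand, so their reads cannot be told apart without strand, and Cap1 itself had 0.16 (SE 0.06; edgeR adjusted p = 0.273). Laptm5 and Atp6v0b, at 7.781 and 5.218 Mb from Bmp8b on the same chromosome, did not pass this test. Without labelled knockout CCl4 liver 35 the fit called 265 genes in place of 19, among them Ctsl, which was lower by label there (−0.83; edgeR adjusted p = 0.0217).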

How the data were processed

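Whole liver of mice was measured by RNA sequencing in 53 libraries. For each experiment the authors deposited a table of raw read counts per Ensembl gene (38293, 38293 and 53379 genes); per the submitters' processing notes TopHat2 2.0.11, the GRCm38 genome and HTSeq were used. The strand setting and the annotation release are not given in the sources used here, and 13 members have exons that overlap another annotated gene. Per the labels' protocols a RIN of at least 8 was required and an Illumina mRNA kit was used. Columns were joined to samples through the library indices in the labels, and symbols were taken from GENCODE vM21.

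Each table was fitted on its own with edgeR 4.0.16 (R 4.3.3; filterByExpr, TMM scaling, quasi-likelihood test, 3 groups in 1 fit), with Benjamini-Hochberg adjustment over all genes tested and a threshold of 0.05. Response differences came from a joint fit of the wild-type libraries, and a joint fit of all 53 averaged the label difference. The labels describe the livers of a group as separate animals, and replicate libraries differed by more than counting noise (chi-square per degree of freedom of at least 5.0). Relations to 13 macrophage markers used log2(CPM + 0.5) and 100000 permutations. The number of counts per library sets the precision of low genes such as Ctsk. The scripts were tested on simulated data.

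Members and gene lists were chosen with earlier results of these data known. All 40 members could be named; values in every sample are given for the called members with the largest changes (up to 8 higher and 4 lower per comparison) and for the member with the largest change in each subgroup. From other lists up to 3 genes with the smallest p, and Adgre1, Cd68, Clec4f, Alb, Mki67 and Bmp8b, were named. Gnptg, Nagpa, Hpx, Cd163 and Fabp5 were added outside this rule after their values were seen. Alternatives were another scaling (RLE), no filter, DESeq2 1.42.0, the i5 index as a covariate or as a split, only the 2 groups compared, a replicate block, and leaving out each library in turn; the splits by index, the livers left out together and the GAGGAAGT motif were added after seeing the data. Livers 12 to 16 of day 0 and day 3 share numbers, and whether these mark the same mice is not stated.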

Additional observations from a re-analysis of the deposited data

Results flagged for a closer look

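Single livers stood far from the rest of their group, by the gap to the next liver relative to the range (Dixon's 95% value), in 27 of 355 combinations of member and group with 4 to 10 livers; chance gives about 1 in 20. Of these, 10 were labelled knockout CCl4 liver 35, with the highest Ctss (219 CPM), Ctsz (443), Ctsa (239), Ctsl (4580), Lgmn (264), Psap (1206), Atp6v0a1 (104), Atp6v1b2 (99.9) and Grn (943) and the lowest Lipa (94.1 CPM) of its group. Wild-type CCl4 liver 34 had the highest Ctsl (10150 CPM), Npc1 (182), Mcoln1 (38.5) and Atp6v0c (42.1) and the lowest Glb1 (2.91 CPM).

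The others were spread over groups. On day 3 of hepatectomy labelled knockout liver 17 had the highest Ctss (46.0 CPM) and liver 19 the lowest Hexa (52.97 CPM), and wild-type liver 13 had the lowest Ppt1 (29.1 CPM) and Mcoln1 (21.4 CPM), liver 16 the highest Scarb2 (206 CPM) and liver 15 the highest Atp6v0c (11.8 CPM). Oil liver 30 had the highest Ctsd (414 CPM) and Hexa (61.9 CPM), labelled knockout CCl4 liver 22 the highest Tpp1 (141 CPM), Western wild-type liver 36 the highest Npc1 (211 CPM), Western labelled knockout liver 6 the lowest Atp6v0a1 (44.7 CPM), and low-fat liver 20 the highest Atp6v1h (60.9 CPM).

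Responses differed between challenges by the test of the difference itself in 12 cases. Over all genes the shares called either way were 18.8% for diet minus CCl4, 4.37% for diet minus hepatectomy and 8.02% for CCl4 minus hepatectomy. The log2 difference of diet minus CCl4 was 0.77 for Man2b1, −2.11 for Ctsl, 0.47 for Lamp1 and 0.36 for Tpp1. That of diet minus hepatectomy was 2.01 for Ctss, 1.45 for Laptm5, 0.81 for Man2b1 and 0.73 for Atp6v0a1. That of CCl4 minus hepatectomy was 1.80 for Ctsl, 1.61 for Ctss, 1.19 for Lgmn and −0.55 for Ctsb. Without wild-type CCl4 liver 34 Ctsl had −0.09 for diet minus CCl4 and −0.22 for CCl4 minus hepatectomy, and neither passed. Without that liver Tpp1 did not pass for diet minus CCl4, nor did Ctss and Lgmn for CCl4 minus hepatectomy.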

How the results depend on the processing

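No called member changed direction under any alternative other than leaving out single livers, where Ctsl in CCl4 minus hepatectomy was −0.22 without wild-type CCl4 liver 34 (and at most 2.10, without wild-type CCl4 liver 7). The cause of the differences below was not tested. Member counts below are given to compare settings and are no result about the set. Among libraries of index D502 the diet comparison gave 1401 genes, 7 members higher and 0 lower, and the Western label comparison 1 gene. For CCl4 against oil, members lower were 0 without a filter and 1 in a fit of only the 2 groups, and members higher were 8 there, 8 with DESeq2 and 9 without livers 34 and 35; the index covariate gave 3599 genes, 12 members higher and 4 lower. The CCl4 label comparison gave 21 genes with DESeq2, 0 within index D503 and 2 without livers 34 and 35, and the hepatectomy label comparison 182 without a filter and 59 with DESeq2. DESeq2 gave 6 members higher for diet minus CCl4 and 872 genes for diet minus hepatectomy, and no filter gave 0 members lower for CCl4 minus hepatectomy. The label average gave 8 genes without a filter and 65 with DESeq2. The marker relation gave 718 genes, 9 members positive and 0 negative without the 2 farthest livers, and 0 negative with RLE or without a filter. TCACGTGA was in promoter windows of 6 members and GAGGAAGT in those of 4.

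Leaving out each library in turn gave, for diet, 17 to 20 members higher and 3 to 4 lower (4222 to 5031 genes), for CCl4 5 to 7 higher and 0 to 2 lower (1757 to 2131 genes), and for hepatectomy 7 to 10 higher and 3 lower (1582 to 1785 genes). The CCl4 label comparison gave 1 to 2 genes and the hepatectomy one 3 to 40. Diet minus CCl4 gave 2 to 7 members higher and 1 to 3 lower, diet minus hepatectomy 3 to 4 higher, and CCl4 minus hepatectomy 0 to 4 higher with 798 to 1527 genes. The label average gave 7 to 265 genes and 0 to 1 members lower, and the marker relation 10 to 18 members positive and 0 to 1 negative. With a replicate block over mouse numbers 12 to 16, hepatectomy gave 1710 genes, 8 members higher and 3 lower. Psap no longer passed there (0.29, edgeR adjusted p = 0.0513). Deviations of same-numbered livers from their group means had r between −0.02 and 0.09, and those of other pairs between −0.09 and 0.05. The largest values were those of same-numbered livers 16 (0.09) and 15 (0.08). So few pairs cannot show whether the livers come from the same mice, which the labels do not state.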
